A study of Mus musculus with 16 samples.

Results

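The cytosolic ribosomal protein genes are 79 of the 21183 genes that passed the filter on low values in mRNA of the mouse cortex at P7. They were chosen by symbol from the 36930 entries of the deposited table (Rpl or Rps and a number, with the endings a, x, l, al or l1, and Rplp0, Rplp1, Rplp2 and Rpsa), and 83 entries matched. Rps26 and Rpl41 were left out because they lie in the segment of chromosome 10 around Avil, the gene whose promoter drives the Cre of the study. Rpl10l and Rpl39l were left out because they had too few values, with 1 and 8 of 16 pups above a log2 value of -5. Of the members, 30 encode proteins of the small subunit and 49 encode proteins of the large subunit, and they lie on 19 chromosomes.

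Each ribosome carries a single copy of nearly every one of these proteins, so that cells need them in like amounts. The mRNAs of these genes start with a run of pyrimidines, the 5′ terminal oligopyrimidine tract (TOP), through which the kinase mTOR and the RNA-binding protein Larp1 control their translation. In the brain, ribosomal protein mRNAs are found in all cell types and also in axons and dendrites.

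The samples were cortices of 16 C57BL6 pups taken on P7, 8 ChR2-flfl and 8 Avil-ChR2. All pups carried the Ai27D insertion in the Rosa26 locus, a channelrhodopsin-2 and tdTomato fusion behind a STOP flanked by loxP sites, and all of them were kept under blue light during 1 h of each day between P1 and P5. Only Avil-ChR2 pups had Cre recombinase, which is driven by the advillin promoter, a promoter of peripheral sensory neurons, and is not meant to act in cells of the cortex. The ChR2-flfl pups were Cre-negative litter mates, and the labels do not give the litter of a pup.

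Avil itself had 0.825 to 1.46 CPM (reads of a gene scaled to the size of the library) in ChR2-flfl and 37.3 to 46.4 CPM in Avil-ChR2 cortices. Reads per pup ranged from 30549126 to 48711134, and only ChR2-flfl replicate 3 lay well below the other pups. The summed level of 6 neuron markers was 4296 to 4665 CPM, with all 6 above the filter in these libraries. The pup labels list 7 males and 9 females, and a second list of the study's pups gives 8 of each. The sources differ for Avil-ChR2 replicate 4, labelled female, in which the Y-linked gene Eif2s3y had 64.6 CPM, against a highest value of 0.125 CPM in the other pups labelled female.

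The annotated transcript starts of 59 members were available from RefSeq (GRCm38.p6). A window of 30 bases, 15 before the annotated start and 15 from it onwards, was read on the transcribed strand, with the longest run of C and T in capitals. The members shown are Rpl7a with the longest run, Rps6 as the protein phosphorylated below mTOR, Rplp2 of the ribosomal stalk, Rpl39 and Rpl27a with the lowest p between the genotypes, the members that followed the rest most closely (Rps2, Rpl18 and Rpl37a) and 3 that went against it (Rps24, Rpl5 and Rpl35a).
Rpl7a (chr2:26910792-26910821, plus strand): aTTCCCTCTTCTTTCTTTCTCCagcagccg
Rps6 (chr4:86857353-86857382, minus strand): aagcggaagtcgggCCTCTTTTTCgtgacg
Rplp2 (chr7:141447636-141447665, plus strand): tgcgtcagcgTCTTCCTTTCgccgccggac
Rpl39 (chrX:37085208-37085237, minus strand): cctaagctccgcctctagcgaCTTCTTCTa
Rpl27a (chr7:109519180-109519209, plus strand): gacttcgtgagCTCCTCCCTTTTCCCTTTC
Rps2 (chr17:24720048-24720077, plus strand): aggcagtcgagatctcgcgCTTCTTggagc
Rpl18 (chr7:45718056-45718085, plus strand): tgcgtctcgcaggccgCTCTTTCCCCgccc
Rpl37a (chr1:72711245-72711274, plus strand): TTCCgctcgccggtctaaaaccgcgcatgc
Rps24 (chr14:24490663-24490692, plus strand): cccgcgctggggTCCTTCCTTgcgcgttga
Rpl5 (chr5:107900513-107900542, plus strand): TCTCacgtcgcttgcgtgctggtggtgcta
Rpl35a (chr16:33056438-33056467, plus strand): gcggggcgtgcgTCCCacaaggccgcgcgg

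A run of at least 8 pyrimidines was found in 24 of the 59 windows (40.7%), against 11.9% of the 27025 windows of all genes with a RefSeq start. The letters CTTTC were found in 14 members (23.7%), against 3.97% of all genes, and CTTCC in 12 (20.3%), against 6.80%. CTTTT was found in 5 members (8.47%), against 3.03% of all genes. These motifs were searched on the transcribed strand only and may overlap within a window. For members the annotated start nearest the 5′ end of the deposited gene was used, and for all genes the first one listed. The shares are therefore not fully alike in the choice of start. The longest run was 21 bases in Rpl7a, 19 bases in Rpl27a and 10 bases in Rps6, Rplp2 and Rpl18. In Rpl5, Rpl35a and Rpl37a it was 4 bases. An annotated start can lie some bases away from the start used in cortex, which these data do not show.

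The members together made up 0.434% to 0.470% of the CPM of a pup. Their mean level ran from 0.294 CPM for Rpl3l to 351 CPM for Rpl4, with a median of 32.3 CPM. Per kb of the principal transcript of the GENCODE annotation, the median was 40.3 CPM, against 5.31 CPM per kb over the 17474 tested genes with a transcript. The small subunit genes had a median of 45.6 CPM per kb and the large subunit genes 40.0 CPM per kb. Mitochondrial ribosomal proteins, which are encoded by separate nuclear genes and serve the ribosome of mitochondria, had a median of 14.97 CPM per kb over 76 genes. Nuclear genes of oxidative phosphorylation had 60.6 CPM per kb over 82 genes.

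The highest level per kb was that of Rplp1, an acidic protein of the stalk that recruits elongation factors, with 244 CPM per kb. Rps15 had 230, Rpl4 228 and Rpl8 182 CPM per kb. The lowest level was that of Rpl3l, a paralog of Rpl3 known from heart and skeletal muscle, with 0.214 CPM per kb and 5 reads in its lowest pup. Rpl18 had 9.56, Rps27l 10.4, Rpl17 10.7 and Rpl7l1 12.2 CPM per kb. Levels of single genes depended on the transcript chosen. With the longest transcript of each gene, 4 of the 5 highest and 1 of the 5 lowest members kept their place among those 5, and with the shortest coding transcript 0 and 2 did.

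Levels of single members are also uncertain because their sequences are copied across the genome. Of the 50-base windows of a member's principal transcript, a median of 51.3% also occurred in transcripts of other genes, and 77 of the 79 members shared windows with at least 1 annotated pseudogene. The share was 98.65% for Rps27, 93.8% for Rpl5 and 85.4% for Rpl10, against 0% for Rpl3l. How reads with several matches were assigned is not stated, and the table holds 2 entries named as pseudogenes of ribosomal proteins. Across members, the level per kb had a Spearman rho of -0.052 with the share of shared windows.

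All 5 paralogs had a lower level per kb than their partners. Rpl3 was 305 times higher than Rpl3l, Rpl7 6.73 times higher than Rpl7l1, Rps27 2.45 times higher than Rps27l, a target of p53, and Rpl22 1.67 times higher than Rpl22l1. Rpl36a on chromosome X and its autosomal paralog Rpl36al were close, with 23.2 and 22.4 CPM per kb. The order of this pair depended on the transcript lengths used, 483 and 1276 bases. In CPM, Rpl36al was higher, with 28.6 against 11.2 CPM. Over the 16 pups, Rpl36al and Rpl36a had an r of 0.56 (rho 0.32). The r of the other pairs was 0.31 for Rpl22l1 and Rpl22, 0.24 for Rpl7l1 and Rpl7, 0.075 for Rpl3l and Rpl3 and 0.0012 for Rps27l and Rps27. These are descriptions over the same 16 libraries.

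**Figure D1:**
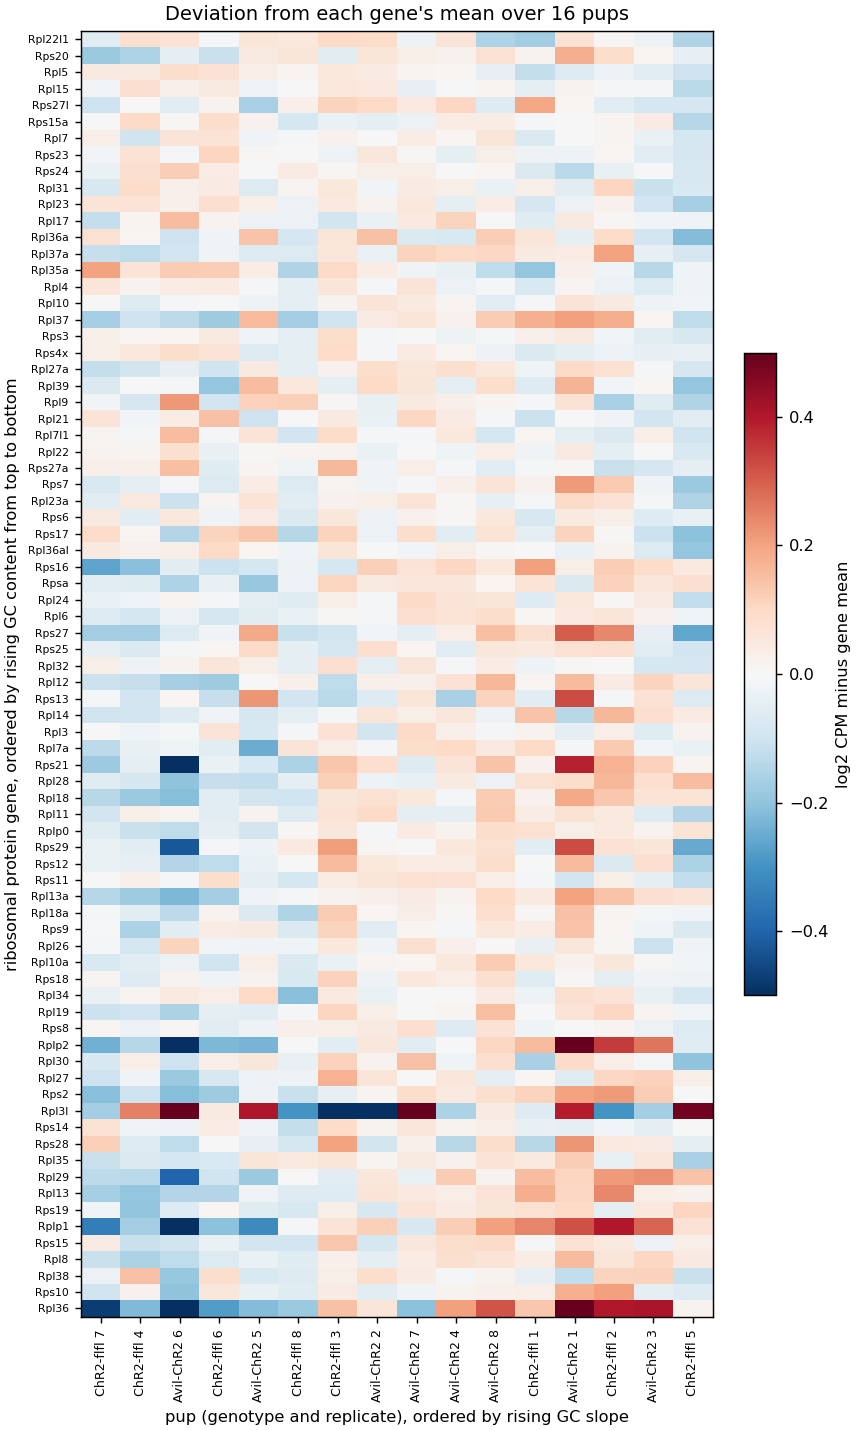
Deviation of 78 of the 79 members (rows, ordered by GC content, lowest at the top) from its own mean in each of the 16 pups (columns, ordered by the slope of log2 values on GC content), in log2 CPM. Colors are capped at -0.5 and 0.5. Beside Rpl3l, which has few reads, the strongest colors are those of Rpl36, Rplp1, Rplp2 and Rps21, which lie below their mean in most pups on the left and above it in most pups on the right.

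The mean over members moved little between pups. In ChR2-flfl cortices, the mean log2 value over all 79 members ranged from 5.14 to 5.25 with a median of 5.16 and was 5.18 ± 0.043 (SD, n = 8). In Avil-ChR2 cortices, it ranged from 5.13 to 5.28 with a median of 5.21 and was 5.21 ± 0.045 (SD, n = 8). The groups overlapped over nearly their whole range, and the lowest and the highest pup were both Avil-ChR2 (replicates 6 and 1). The difference of the means was 0.030, with 0.016 among pups numbered 26 to 33 and 0.045 among those numbered 35 to 42, which are 2 runs of pup numbers with 4 pups of each genotype in each. In bulk tissue, fewer cells of a type and less RNA per cell cannot be told apart.

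The small and the large subunit moved together. In ChR2-flfl cortices, the mean log2 value was 5.30 ± 0.045 (SD, n = 8) over the small and 5.10 ± 0.044 (SD, n = 8) over the large subunit genes. In Avil-ChR2 cortices, these means were 5.33 ± 0.048 (SD, n = 8) and 5.13 ± 0.044 (SD, n = 8). The small subunit mean was above the large subunit mean in every pup, by 0.175 to 0.229 on the log2 scale. For ChR2-flfl this gap was 0.201 ± 0.022 (SD, n = 8), and for Avil-ChR2 it was 0.196 ± 0.010 (SD, n = 8), so that the genotypes differed in it by less than the spread between pups. As levels of different genes, the means depend on transcript length and on which members are counted, and the gap was 0.119 without the 5 members that end in l, l1 or al. Over the 16 pups, the 2 means had an r of 0.93 (rho 0.94), and an r of 0.90 without the 2 pups farthest from the median small subunit mean. The r was 0.87 within ChR2-flfl and 0.98 within Avil-ChR2. Among the 39 members with under 50% of shared windows, it was 0.71. No p was calculated, because both means come from the same libraries and the same scaling. Averaging over many genes also raises an r, and no r of 2 such means was calculated for other genes.

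**Figure D2:**
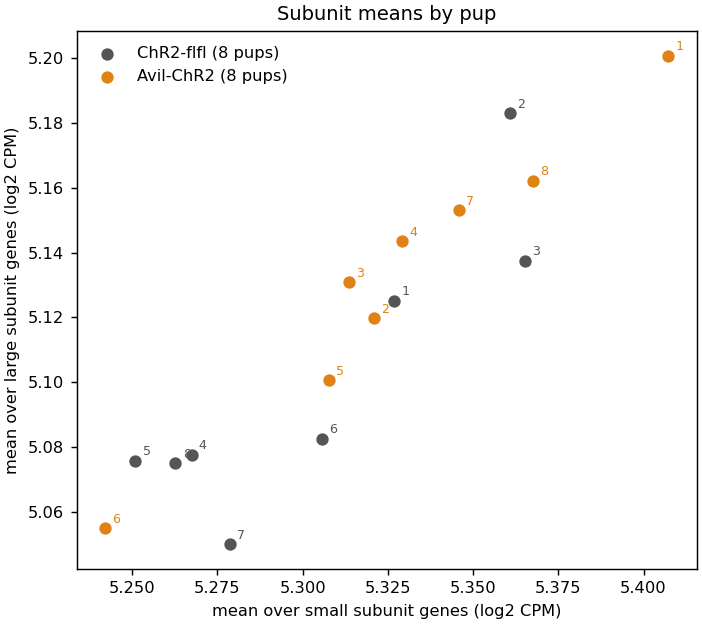
Mean log2 CPM over the 30 small subunit genes (x axis) and over the 49 large subunit genes (y axis), 1 point per pup, numbered by replicate, gray for ChR2-flfl and orange for Avil-ChR2. Both means are lowest or nearly lowest in Avil-ChR2 replicate 6 and highest in Avil-ChR2 replicate 1 (r of 0.93), and the genotypes overlap.

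Behind these means the single genes agreed less. The median r over all pairs of members was 0.21, and 20.6% of the pairs had an r above 0.5, against a median of -0.0020 and 4.77% over all pairs of the 21183 tested genes. Pairs within the small subunit had a median r of 0.21, pairs within the large subunit 0.18 and pairs between the subunits 0.21, so that the medians within and between the subunits were alike. Oxidative phosphorylation genes had a median r of 0.27 over 83 genes, mitochondrial ribosomal proteins 0.11 over 76 and aminoacyl-tRNA synthetases 0.14 over 19. In the same order, 25.1%, 11.4% and 12.3% of their pairs had an r above 0.5. After subtracting the mean of each genotype, the median r of the members was 0.19.

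The r of a member with the mean of the other members had a median of 0.44. It was above 0.5 in 37 members and below 0 in 14. Of all tested genes, 9.43% had an r above 0.5 with the mean over members. The highest values were those of Rps2 (0.84), a protein at the mRNA entry of the small subunit, Rpl18 (0.83) and Rpl37a (0.83). The lowest were those of Rps24 (-0.52), Rpl5 (-0.40), which carries the 5S rRNA and can bind Mdm2, Rpl35a (-0.35), Rpl3l (-0.32) and Rps4x (-0.29), the X-linked small subunit gene. Rpl3l had so few reads that counting alone gives an SD of 0.38 on the log2 scale, against a measured SD of 0.47.

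Rps2 had 36.3, 39.9 and 48.7 CPM (lowest, median and highest) in ChR2-flfl and 36.2, 43.9 and 48.3 CPM in Avil-ChR2 cortices. Rps24 had 83.2, 87.1 and 93.0 CPM in ChR2-flfl and 80.1, 88.3 and 95.8 CPM in Avil-ChR2 cortices. The genotypes overlapped in both genes, and the pup with the highest Rps24, Avil-ChR2 replicate 6, had the lowest Rps2. The r between these 2 genes was -0.62, and Rps24 and Rpl5 had an r of 0.77 with each other. Rpl5 had an r of -0.71 with Rps2 and -0.63 with Rpl18, so that these members ran in opposite directions across pups.

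Members that followed the rest tended to be GC-rich. Among the exceptions were Rpl37a, with an r of 0.83 at a GC content of 47.1%, and Rpl3l, with -0.32 at 56.1%. Across members, the r with the rest had a Pearson r of 0.48 (rho 0.46) with the GC content of the transcript, and -0.27 (rho -0.23) with log2 transcript length. The 39 members above the median GC content of 51.6% had a median pair r of 0.35, the 40 others 0.22, and pairs between them 0.12. An r above 0.5 with the rest was seen in 25 of the 39 and in 12 of the 40. This split was chosen after the values were seen, and genes are not independent replicates. GC contents were alike in both subunits, with a median of 51.4% in the small and 51.6% in the large subunit.

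**Figure D3:**
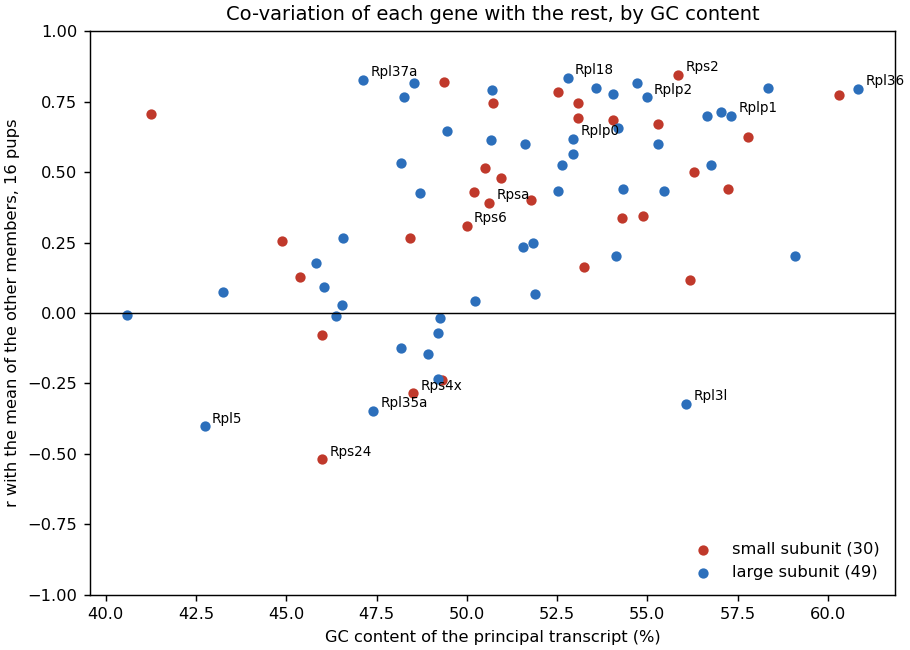
GC content of the principal transcript in percent (x axis) against the r of each member with the mean of the other members over 16 pups (y axis), red for small and blue for large subunit genes. Rpl36 and Rps2, with GC contents of 60.8% and 55.9%, lie near the top, and Rps24, Rpl5 and Rps4x, with GC contents of 46.0%, 42.7% and 48.5%, lie below 0. Against this trend, Rpl37a (47.1%) lies near the top and Rpl3l (56.1%) below 0.

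Beside Rpl3l, the members that varied most between pups were Rpl36, Rplp1 and Rplp2. Rpl36, which had the highest GC content of the members (60.8%), ran from 6.54 to 11.97 CPM with a median of 8.58 CPM in ChR2-flfl and from 5.30 to 14.5 CPM with a median of 9.96 CPM in Avil-ChR2 cortices. The stalk genes Rplp1 and Rplp2 ran from 73.0 to 157 CPM and from 13.5 to 30.2 CPM over all pups. Their SD over the 16 pups was 0.37 (Rpl36), 0.29 (Rplp1) and 0.27 (Rplp2) on the log2 scale, where counting alone gives 0.069, 0.019 and 0.047. For comparison, the median SD over members was 0.081 and the lowest was 0.038, for Rpl22. For Rplp1 and Rplp2 the highest pups were Avil-ChR2 replicate 1 and ChR2-flfl replicate 2, and for Rpl36 Avil-ChR2 replicates 1 and 3. The lowest pup was Avil-ChR2 replicate 6 in each of these genes, and the genotypes overlapped. Rplp1 had an r of 0.92 with Rplp2, 0.94 with Rpl36, 0.88 with Rps21 and 0.82 with Rplp0, the scaffold of the stalk, which itself varied with an SD of 0.069.

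Genes outside the members showed a slope on GC content in the same pups. For each pup, log2 values of 13766 tested genes that are no members and average 1 CPM or more (log2 mean 0) were regressed on GC content and on log2 transcript length, each as a deviation from the mean over pups. The GC slope ran from -0.109 (ChR2-flfl replicate 7) to 0.087 (ChR2-flfl replicate 5) log2 units per 10 percentage points of GC. The difference between the means over the 39 members above and the 40 at or below the median GC content had an r of 0.90 with it. The mean over all members had an r of 0.67 (rho 0.56) with the GC slope, 0.57 without the 2 pups with the most extreme slopes, and an r of -0.74 (rho -0.78) with the length slope. The r with the GC slope was 0.54 for the small and 0.73 for the large subunit mean, and -0.44 for the gap between them. With the length slope, these values were -0.64, -0.78 and 0.32. Members were short, with a median transcript of 887 bases against 2789 bases over the tested genes. After regression on the GC slope, the median r between members was 0.22 and the r of the subunit means 0.93. After regression on the length slope, they were 0.12 and 0.90.

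**Figure D4:**
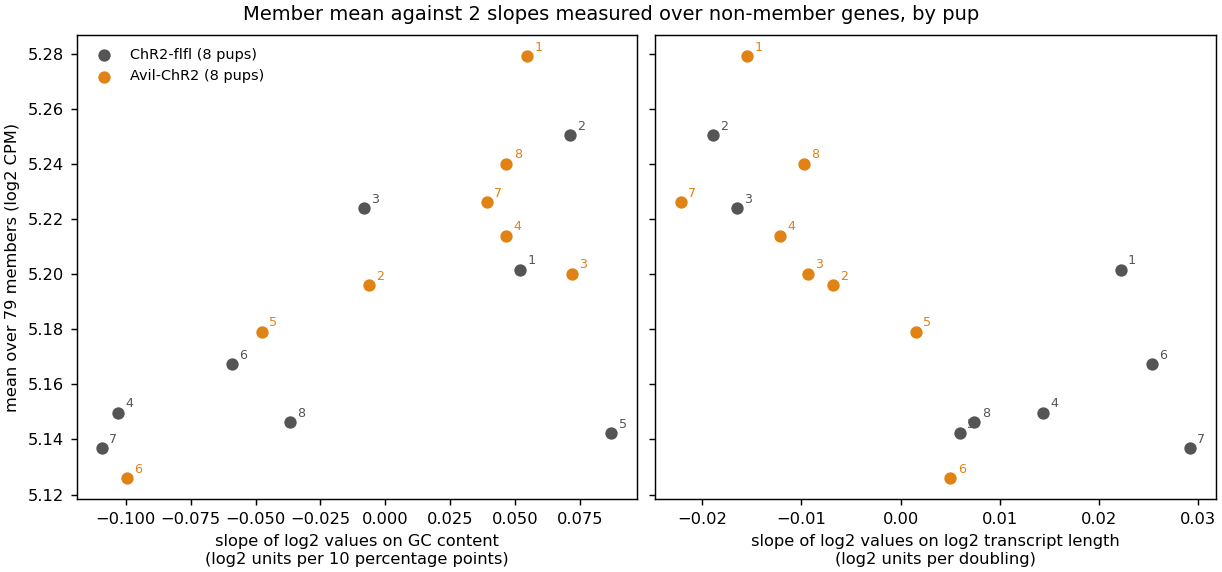
Mean log2 CPM over the 79 members in each pup (y axis) against the slope of log2 values on GC content (left) and on log2 transcript length (right), both measured in 13766 genes that are no members, gray for ChR2-flfl and orange for Avil-ChR2. The member mean is higher in pups with a higher GC slope (r of 0.67) and lower in pups with a higher length slope (r of -0.74), and in the left panel ChR2-flfl replicate 5 lies apart, with the highest GC slope and a low mean.

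Cell type markers moved with the members as well. All 5 markers of the oligodendrocyte lineage passed the filter, and their sum was 255 to 361 CPM in ChR2-flfl and 268 to 349 CPM in Avil-ChR2 cortices. Its log2 value had an r of 0.78 (rho 0.72) with the member mean, and 0.63 without the 2 most extreme pups. The sum of the neuron markers had an r of -0.65 (rho -0.64). Astrocyte (0.23), microglia (0.07), endothelial (0.35), choroid plexus (0.23), red blood cell (0.31) and dividing cell markers (-0.17) had an r closer to 0 over the 16 pups. Without the 2 most extreme pups of each measure, the r was 0.54 for microglia and 0.14 for red blood cell markers, and -0.69 for neuron markers. Reads per pup had an r of -0.19 with the member mean. The gap between the subunit means had an r of 0.51 with dividing cell markers and -0.45 with reads. With the other marker sums its r lay between -0.23 and -0.013. P2ry12 of the microglia list did not pass the filter. Whether it was silent or its reads were not assigned to it is not shown by these data. Each sum weighs its most abundant markers most, and the r of single markers is not given here. The part of cell composition in the co-variation was not tested.

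No member differed between the genotypes after adjustment. In limma over the 21183 genes with Benjamini-Hochberg adjustment, 0 of 79 members had an adjusted p under 0.05 (0.00944% of all genes did), and the lowest adjusted p was 0.81. At an unadjusted p under 0.05, the Avil-ChR2 values were higher in 6 members and lower in 0, against 1.95% of all genes higher and 3.46% lower. These were Rpl39, Rpl27a, Rps13, Rps20, Rpl24 and Rpl9. By the exact permutation test, 7 members had an unadjusted p under 0.05, the first 5 of these with Rpl10a and Rpl17. That test was run on the members only, so that no share over all genes stands beside this count. The log2 difference was above 0 in 54 of 79 members, against 51.4% of all genes, with a median of 0.022 against 0.0020 over all genes. The median was 0.018 in the small subunit, where 20 of 30 differences were above 0, and 0.028 in the large subunit, where 34 of 49 were above 0.

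The differences were bounded closely. The 95% interval lay between -0.2 and 0.2 on the log2 scale for 69 of 79 members and between -0.5 and 0.5 for all except Rpl3l (-0.29 to 0.71). In no member were the 2 genotypes free of overlap, but the share of all genes without overlap was not calculated. The length slope of the pups differed in the same comparison, with 0.0086 ± 0.018 (SD, n = 8) in ChR2-flfl against -0.0086 ± 0.0088 (SD, n = 8) in Avil-ChR2. With the length slope as a covariate, the median difference was 0.0047, with 2 members higher and 4 lower at an unadjusted p under 0.05, against 1.65% and 1.84% of all genes in that fit. Within pups 26 to 33 the median was 0.0036 and within pups 35 to 42 it was 0.042.

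**Figure D5:**
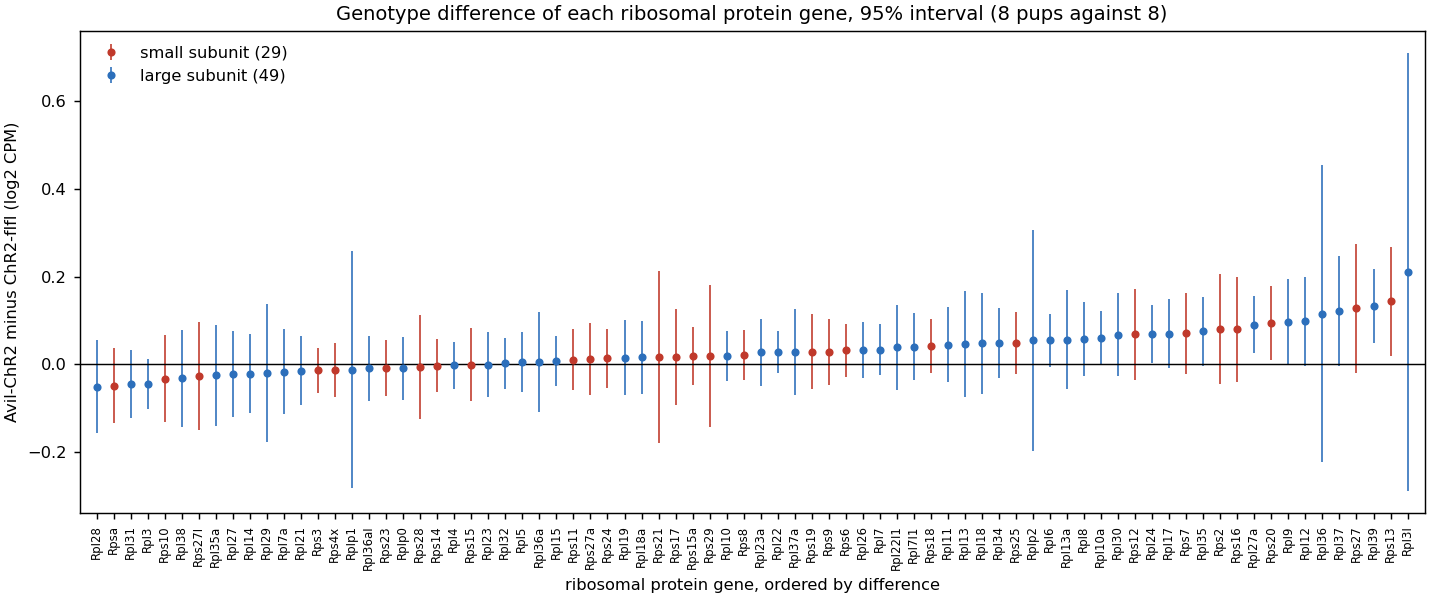
Log2 difference between Avil-ChR2 and ChR2-flfl (y axis, log2 CPM) of 78 of the 79 members with the 95% interval from limma, ordered by size, red for small and blue for large subunit genes. Differences run from -0.051 (Rpl28) to 0.21 (Rpl3l), and intervals that leave 0 out occur only on the upper side, in 6 members.

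Rpl39, a small protein at the exit tunnel encoded on chromosome X (37082520 to 37085184, GRCm38), had the lowest p. It had 27.9, 30.7 and 33.1 CPM (lowest, median and highest) in ChR2-flfl and 31.0, 33.6 and 35.9 CPM in Avil-ChR2 cortices. The mean of the controls was exceeded in all 8 Avil-ChR2 pups, and the groups overlapped. On the log2 scale the difference was 0.13 with a standard error of 0.041 (unadjusted p = 0.0039 and adjusted p = 0.81 in limma, two-sided exact permutation p = 0.0053). It was 0.089 within the lower and 0.18 within the higher pup numbers.

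Rpl27a, on chromosome 7 from 109519195 to 109522369, had 44.4, 46.2 and 50.9 CPM in ChR2-flfl and 46.9, 50.1 and 51.6 CPM in Avil-ChR2 cortices. Here too the mean of the controls was exceeded in 8 of 8 Avil-ChR2 pups, and the groups overlapped. On the log2 scale the difference was 0.090 with a standard error of 0.032 (adjusted p = 0.82 in limma, two-sided exact permutation p = 0.011). The annotated start of this gene lies within the 19-base run shown above. Rps13, which also hosts small nucleolar RNAs in its introns, had 7.34, 7.63 and 8.04 CPM in ChR2-flfl and 7.22, 8.44 and 10.1 CPM in Avil-ChR2 cortices. Its difference was 0.14 on the log2 scale with a standard error of 0.059 (adjusted p = 0.85 in limma). The Avil-ChR2 group spanned the whole ChR2-flfl range in this gene.

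The other differences of the largest size were 0.21 for Rpl3l (limma adjusted p = 0.97), 0.13 for Rps27 (adjusted p = 0.93) and 0.12 for Rpl37 (adjusted p = 0.91). The lowest were -0.051 for Rpl28, -0.048 for Rpsa, which is also known as the laminin receptor, -0.045 for Rpl31, -0.045 for Rpl3 and -0.033 for Rps10, with limma adjusted p of 0.95 to 0.98. With 1 pup left out, Rpl3l ranged from 0.11 (without ChR2-flfl replicate 3) to 0.36 (without Avil-ChR2 replicate 2). In the same way, Rpl28 moved to -0.026 without Avil-ChR2 replicate 6, Rpsa to -0.025 without Avil-ChR2 replicate 5 and Rps10 to -0.0061 without ChR2-flfl replicate 2. Rps6, whose phosphorylation is a common readout of neuronal activity, had 39.1, 40.6 and 43.0 CPM in ChR2-flfl and 39.5, 42.3 and 42.9 CPM in Avil-ChR2 cortices, with a difference of 0.032 on the log2 scale (95% interval -0.028 to 0.092). The stalk genes had differences of -0.0089 (Rplp0), -0.012 (Rplp1) and 0.054 (Rplp2), and the 95% intervals of Rplp1 (-0.28 to 0.26) and Rplp2 (-0.20 to 0.31) were wide. Beside Rpl39, the X-linked members had differences of 0.019 (Rpl10), -0.013 (Rps4x) and 0.0056 (Rpl36a).

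Pups 35 to 42 had lower values than pups 26 to 33 in 55 of 79 members, with a median log2 difference of -0.031 against -2.9e-05 over all genes. In limma with genotype as a covariate, 0 members had an adjusted p under 0.05 (0.123% of all genes), with a lowest adjusted p of 0.15. At an unadjusted p under 0.05, 11 members were lower in pups 35 to 42 and 0 were higher, against 6.74% of all genes lower and 5.76% higher. Of these 11, the largest differences were those of Rpl36 (-0.45, standard error 0.13), Rplp1 (-0.35, standard error 0.10), Rplp2 (-0.31, standard error 0.099) and Rps21 (-0.23, standard error 0.079). All 11 members had a GC content above the median of the members. They were 28.2% of the 39 members there, against 0 of the 40 members at or below it. Of all tested genes above that median GC content, 12.3% were lower at an unadjusted p under 0.05, against 3.76% of the genes at or below it. The GC slope averaged 0.022 over the lower and -0.022 over the higher pup numbers. The sum of the oligodendrocyte lineage markers was 319 ± 25.8 (SD, n = 8) and 279 ± 12.9 CPM (SD, n = 8). The sum of the red blood cell markers was 329 ± 62.5 (SD, n = 8) and 258 ± 24.8 CPM (SD, n = 8) in the same order. At an unadjusted p under 0.05, 4 of 5 oligodendrocyte lineage markers and 4 of 4 tested red blood cell markers were lower in pups 35 to 42, and their part in the members' difference was not tested. What distinguishes the runs besides their numbers is not given in the labels.

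Sex gave 0 members with an adjusted p under 0.05 in limma with genotype as a covariate (0.0425% of all genes), with a lowest adjusted p of 0.99. At an unadjusted p under 0.05, Rpl38 (0.14, standard error 0.045) and Rps15a (0.064, standard error 0.029) were higher and 0 members lower in females, against 2.12% of all genes higher and 2.33% lower. The difference was above 0 in 54 of 79 members, against 51.5% of all genes. The differences of the X-linked members were 0.097 (Rpl36a), 0.013 (Rps4x), -0.0033 (Rpl39) and -0.011 (Rpl10), with an unadjusted limma p of 0.079 for Rpl36a and at least 0.66 for the others. The interaction of genotype and sex gave 0 members and 0 genes in all with an adjusted p under 0.05, with 6 members at an unadjusted p under 0.05 in which the genotype difference was lower in females (1.87% of all genes) and 0 in which it was higher (2.43%). These sexes are those of the labels, which count Avil-ChR2 replicate 4 as female despite its Eif2s3y level. With the sexes of the second list, 0 members had an adjusted p under 0.05 in limma for sex, against 0.0519% of all genes. The interaction gave 0 members and 0 genes there. Unadjusted counts and X-linked differences are given for the labels only.

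Of the other lists, none had a gene with an adjusted p under 0.05 between the genotypes. Ribosomal proteins under other symbols and translation factors with TOP mRNAs had a median difference of 0.017 over 17 genes, with Rps3a1 (0.077) and Fau (0.053) highest and Hnrnpa1 (-0.042) and Npm1 (-0.031) lowest. Ribosome biogenesis genes, which make and assemble rRNA and pre-ribosomes, had a median of 0.015 over 30 genes, with Rrs1 (0.12) and Nop16 (0.095) highest and Fbl (-0.054) and Polr1a (-0.049) lowest. Regulators of ribosomal protein synthesis had a median of -0.011 over 14 genes, from Tsc1 (-0.065) and Larp4 (-0.064) to Rheb (0.011) and Eif4e (0.019).

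Mitochondrial ribosomal proteins had a median of 0.035 over 76 genes, with Mrpl52 (0.13) and Mrpl43 (0.12) highest and Mrps9 (-0.079) and Mrpl39 (-0.068) lowest. Oxidative phosphorylation genes had a median of 0.024 over 83 genes, with Cox4i2 (0.53) and Cox7a1 (0.40) highest and Ndufa4l2 (-0.11) and Cox7b2 (-0.091) lowest. Aminoacyl-tRNA synthetases, which charge tRNAs, had a median of 0.016 over 19 genes, with Yars (0.051) and Tars (0.050) highest and Vars (-0.019) and Eprs (-0.0030) lowest. Differences were above 0 in 56 of 76, 69 of 83 and 17 of 19 genes of these lists. The median of the members, 0.022, lay within the range of these lists. Of the members kept out by position, Rps26 had a difference of 0.025 and Rpl41 of -0.031. The other lists were not filtered by position, so that genes in the segment around Avil could remain in them. Mars was not part of the synthetase list.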

How the data were processed

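Cortical mRNA of 16 pups was sequenced. According to the methods of the study, the authors removed adapters and mapped reads no shorter than 50 bp to the mouse genome mm10 (GRCm38) in SeqMan NGen. Reads per gene were obtained in ArrayStar, and TMM factors from edgeR were applied by the authors. The deposited values are CPM on a linear scale, with blanks where a gene had no reads. Divided by the value of a single read they gave whole numbers to within 0.05 reads, from which the reads per pup were taken. Count tests were not run. Intervals from reads cover counting error only.

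Values were log2 transformed, and a floor of -5 replaced 4432 of 338928 values of the tested genes, missing ones included. No value of a member was among them. Genes with at least 12 of 16 values above -5 were tested. Genotypes, sexes and runs of pup numbers were compared with limma 3.58.1 in R 4.3.3 (lmFit, eBayes with trend, 95% intervals from moderated t quantiles), with Benjamini-Hochberg adjustment over all 21183 genes. Single members were also compared by a two-sided exact permutation test over the 12870 splits of the pups. Correlations, subunit means and levels per kb are descriptions. Fits and correlations were tested on simulated data. Lowest mean chi-square per gene over the 120 pairs of pups was 5.17, where counting alone gives 1, so that no library was counted as a duplicate. Pups are separate animals.

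Transcript length and GC content are those of the APPRIS principal transcript in GENCODE M21, found for all 79 members, which was made the main choice after lengths had been seen. Sequences around starts are from RefSeq (GRCm38.p6), with a match for 59 members. The members and lists were chosen with earlier results of these data known. Named members are the 5 highest and 5 lowest per kb, the 5 largest and 5 smallest genotype differences, X-linked members, paralogs with partners, the 3 highest and 5 lowest r with the rest, Rps6, Rpsa, Rplp0, Rplp1 and Rplp2. Rpl36, Rps21, Rps15a, Rpl38, Rpl7a and the members with an unadjusted p under 0.05 were named after their values were seen. Some results on single genes, 1 of the 5 highest members per kb among them, are not reported here, and that member is not drawn in the plots by gene. The lists also name the 2 highest and 2 lowest genes of each.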

Additional observations from a re-analysis of the deposited data

Results flagged for a closer look

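In groups of 4 to 10 samples, a pup was looked at again where its gap to the nearest pup was large against the range of its group of 8 (Dixon's 95% limit). This held for 2 of 86 groups tested (the named members and the means per pup, in each genotype), where chance gives about 5%. Rpl36al had 25.0 CPM in ChR2-flfl replicate 5, and the nearest pup of that genotype had 28.2 CPM. The mean over the 40 members at or below the median GC content was 5.23 in Avil-ChR2 replicate 3, and the nearest Avil-ChR2 pup had 5.27.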

How the results depend on the processing

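In every genotype fit run, including those with each pup left out, 0 members had an adjusted p under 0.05, and the lowest adjusted p over these fits was 0.45. The same held for sex (0.75), pup number (0.13) and the interaction (0.80). The edgeR and DESeq2 alternatives were not run. The count of members higher at an unadjusted p under 0.05, 6 in the reported fit, was 2 with the length slope (1.65% of all genes in that fit), 1 within pups 26 to 33 (1.07%), 2 without Avil-ChR2 replicate 1 (2.06%), 12 without ChR2-flfl replicate 2 (2.94%) and 12 without Avil-ChR2 replicate 6 (2.26%). The count of members lower, 0 as reported, was 4 with the length slope (1.84%), 2 with the GC slope (3.83%) and at most 1 with a pup left out. For sex, 2 members higher (2.12% of all genes) became 6 with the GC slope (3.14%) and 1 with quantile normalization (1.99%) or median centring (1.59%). The median genotype difference ranged from 0.016 to 0.035 with a pup left out and was 0.0047 with the length slope, 0.018 with the GC slope and 0.026 with 5 genes kept out by position or under other symbols. With 8 pairs of equal replicate number, the replicate block gave 0 members with an adjusted p under 0.05 and a median difference of 0.022, and changed no call. The numbers did not pair the pups, with r of the deviations from -0.34 to 0.39 and 1 of 8 ChR2-flfl pups closest to its own number.

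The gap between the subunit means, 0.199, was 0.160 with log2(value + 1), 0.154 with the genes kept out by position and under other symbols, 0.119 without members in l, l1 or al, and -0.60 as log2 of the summed CPM, where 30 genes are set against 49. With a pup left out it ranged from 0.197 to 0.20, the genotype difference of the small subunit mean from 0.016 to 0.039 and that of the large from 0.023 to 0.044. The median r between members ranged from 0.160 to 0.217 with a pup left out and was 0.14 within Avil-ChR2 and 0.12 after the length slope. The r of the subunit means ranged from 0.91 to 0.95 with a pup left out and was 0.87 within ChR2-flfl and 0.98 within Avil-ChR2. The median r with the other members ranged from 0.42 to 0.50 with a pup left out and was 0.52 within ChR2-flfl and 0.34 after the length slope. The median level per kb was 32.8 with the longest and 56.0 with the shortest coding transcript. The cause was not tested.

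Of 608 genotype differences of 21 single members under alternatives, 23 had the opposite sign and 0 passed the adjusted threshold. Within pups 35 to 42, Rpl31 (0.017), Rps4x (0.0049) and Rplp2 (-0.050) changed sign, and within pups 26 to 33 Rpl36a (-0.073) and Rplp1 (0.079). With the length slope, Rpl10 (-0.0015) and Rplp2 (-0.12) changed sign, with the GC slope Rplp2 (-0.025), and with sex from the labels Rpl36a (-0.0066). With a pup left out, Rpl36a ranged from -0.025 to 0.021, Rplp0 from -0.026 to 0.0087, Rplp1 from -0.063 to 0.088 and Rplp2 from -0.030 to 0.14. The GC slope and the fit without Avil-ChR2 replicate 4 for sex were chosen after the data were seen.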

Other observations

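The genes outside the members whose values followed the member mean most closely over the 16 pups were Edf1 (r of 0.88), a small protein that binds stalled and collided ribosomes, Sumf1 (0.88), Rprml (0.87), Zfp428 (0.87), Bex2 (0.87) and Ndufc2 (0.87), a subunit of complex I. With the 79 members as the reference, these values are descriptions over the same libraries.

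Members with under 50% of windows shared with other genes, 39 in all, had a median pair r of 0.15 and an r of the subunit means of 0.71. The 45 members with a mean of at least 30 CPM had 0.22 and 0.90. The first component of the standardized members held 32.3% of their variance and had an r of 0.90 (rho 0.82) with the GC slope of the pups.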
